A study of Mus musculus with 4 samples.

Results

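The C1q-high macrophages of mouse skin wounds are cells with many transcripts of the 3 genes of complement component C1q. They were chosen by thresholds on unique molecular identifiers (UMIs, each standing for 1 captured transcript). A cell was a member when *C1qa*, *C1qb* and *C1qc* together gave at least 10 UMIs, when the macrophage receptor gene *Csf1r* gave at least 1, and when the T cell gene *Cd3g* and the interferon-gamma-induced chemokine gene *Cxcl9* gave 0. It also had to show fewer than 3 of 7 genes of osteoclast-like macrophages (*Acp5*, *Gpnmb*, *Mmp19*, *Ocstamp*, *Met*, *Ednrb* and *Pdpn*). Only cells in which 200 to 3000 genes were detected and mitochondrial UMIs did not exceed 10% were considered, 6443 of the 7178 deposited. Of these, 1540 had *Csf1r* and no *Cd3g*, 690 also reached the C1q minimum, 402 of those showed fewer than 3 of the 7 genes, and 346 of the 402 had no *Cxcl9* and were the members.

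The study treated skin wounds of C57/BL6j mice aged 6 weeks with hucMSC-Exosomes, which are vesicles shed by cultured mesenchymal stem cells of the human umbilical cord. On day 7 it dissociated the skin around the wound for droplet sequencing of single cells, with 1 library per mouse. The hucMSC-Exosomes group (2 libraries) had received 100 µg of exosomes per injection, and the control group (2 libraries) had received phosphate-buffered saline. The sample titles give group and replicate, and each direction between the groups depends on them, because the file names carry letters that would pair the libraries differently. In the labels, the cell type entry says skin cells while the tissue entry lists gut segments, and keratin transcripts were found in every library.

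C1q is the recognition molecule of the classical complement pathway, built from A, B and C chains, and macrophages are its main source in most tissues. It binds immune complexes and dying cells and so takes part in their removal. In skin, macrophages that express *Folr2*, *Cbr2* and *Lyve1* are known as long-lived residents of the dermis, and monocytes that enter a wound from the blood can take on parts of the same expression programme.

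The members numbered 63 in Control 1, 122 in Control 2, 65 in hucMSC-Exo 1 and 96 in hucMSC-Exo 2, and values for the 4 libraries are given in this order below. Their summed UMIs were 514248, 933955, 446949 and 670167. The median member held 7384 UMIs, against 4075 in T cells, so that detection was deeper in the macrophages. The median C1q count per member was 73, 36.5, 33 and 59.5 UMIs, and the range over all members was 10 to 235. The members thus held fewer C1q UMIs in Control 2 and hucMSC-Exo 1 than in the other libraries, which cuts across the groups. No cell barcode was shared between libraries among the members, and 6 barcodes were shared among all deposited cells. The members held 44.8%, 39.9%, 44.4% and 60.7% of the C1q UMIs of all kept cells. Free C1q RNA was scarce, since 4.42%, 2.02%, 1.08% and 1.32% of T cells (2380 cells with at least 2 *Cd3g* UMIs and no *Csf1r*) showed any C1q UMI and the highest of them held 3.

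The label given to these cells was resident-like, and the markers proposed for it were captured in part of the cells. Of 4 proposed markers that the thresholds did not use, *Folr2* (a folate receptor) was found in 104 of the 346 members (30.1%), *Cbr2* (a carbonyl reductase) in 104, *Igf1* (a growth factor) in 167 (48.3%) and *Ccl8* (a chemokine) in 158 (45.7%). The shares in T cells were 1, 11, 11 and 75 of 2380, the last being 3.15%, so that the transcripts lay far above free RNA. Members that gave no UMI of the 4 numbered 112 (32.4%), and members with all 4 numbered 42 (12.1%). A cell can express a gene without a captured transcript, and *Folr2* was found in 15.7% of members and *Cbr2* in 18.9% when cells were thinned to 2000 UMIs. The share with none was 27.0%, 32.8%, 55.4% and 19.8% in the 4 libraries, so that this share was largest in hucMSC-Exo 1, where the median of 6828 UMIs per member was the lowest of the libraries. The part of depth in these shares was not tested. *Lyve1*, which encodes a hyaluronan receptor of dermal residents, was found in 2 members, and *Timd4*, a receptor for dying cells in other resident macrophages, in 0 of 346. *Mrc1* (the mannose receptor) was found in 290 members (83.8%) and *Adgre1* (F4/80) in 277 (80.1%), against 6 and 8 T cells. The cells thus had macrophage transcripts and are called C1q-high macrophages here.

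Within the C1q-high macrophages, the markers were found together in the same cells. With every cell thinned to 2000 UMIs, which 338 members reached, *Ccl8* was present in 57 of 64 members with *Cbr2* (89.1%) and in 79 of 274 without it (28.8%). In the 4 libraries the former share was 93.8%, 85.7%, 90.0% and 88.2%, and the latter 21.7%, 31.6%, 9.09% and 43.6%. *Cbr2* was present in 47.2% of members with *Folr2* and 13.7% of those without. *Ccl8* was present in 73.9% of members with *Igf1* and 23.8% of those without. A separate association joined 2 monocyte genes, with *Plac8* in 17 of 31 members with *Ly6c2* (54.8%) and in 4.23% of the others. The members with *Ly6c2* had *Ccl8* in 19.4% of cells, against 42.3% of the others. The former share was the lower one in each library, over 10, 9, 1 and 11 members with *Ly6c2*. *Mrc1* was present in 38.7% of members with *Ly6c2* and 69.7% of the others, again lower in each library. *Ly6c2* was present in 3 of 53 members with *Folr2* (5.66%) and in 9.82% of those without, lower with *Folr2* in 3 libraries and close in Control 2, at 1 of 13 and 8 of 103. *Ccl8* and *Mrc1* were thus less frequent in members with *Ly6c2*, the counts with *Folr2* were small, and *Cbr2* and *Igf1* were not counted against *Ly6c2*. Depth was equal in these counts, and no test was made over cells.

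The C1q count itself moved with these transcripts. All levels below are CPM, which are counts scaled to a total of 1000000 summed UMIs, and levels are not compared between genes, except that the most abundant gene of a marker list is named. The members of all libraries together were divided into bins that began at 10 (34 cells), 15, 30, 60 and 120 (42 cells) C1q UMIs, in which *Ccl8* was at 491, 1214, 3013, 7789 and 9508 CPM. *Folr2* was at 31.0, 51.3, 87.0, 138 and 198 CPM across the same bins. *Apoe*, which encodes the lipid carrier apolipoprotein E, was at 4888 CPM in the lowest and 29367 CPM in the highest bin. All 3 genes were higher in each bin than in the bin before it. In the opposite direction, *Plac8* went from 440 to 7.07 CPM and the neutrophil attractant *Cxcl2* from 7215 to 1308 CPM, each lower in every bin than in the bin before it. *Ly6c2* was at 497, 140, 316, 48.0 and 7.07 CPM, a course with 1 step back. Depth moved with the bins, with a median of 5659 UMIs per cell in the lowest and 10007 in the highest, and its part in these courses was not tested.

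Inside the libraries, wider bins gave the same direction from the lowest to the highest, while the middle bin did not always lie between them. In these bins 12, 52, 29 and 22 members had 10 to 29 C1q UMIs, 15, 27, 20 and 26 had 30 to 59, and 36, 43, 16 and 48 had 60 or more. *Ccl8* was at 355, 1620, 492 and 672 CPM in the low bin, at 4895, 1230, 2771 and 4371 CPM in the middle bin and at 4870, 6146, 11284 and 12644 CPM in the high bin. The middle bin thus lay between the others in the hucMSC-Exosomes libraries and in neither control. *Selenop*, which encodes a selenium transport protein, was at 615, 1935, 481 and 1173 CPM in the low bin, at 2290, 2053, 1586 and 2529 CPM in the middle bin and at 2472, 2900, 3193 and 3750 CPM in the high bin, in order in all 4 libraries. *Plac8* and *Cxcl2* were lower in the high than in the low bin in all 4 libraries, but in Control 1 the middle bin broke the order, with *Plac8* at 237, 714 and 65.8 CPM and *Cxcl2* at 7049, 998 and 2990 CPM from low to high. The lowest bin held 19.0%, 42.6%, 44.6% and 22.9% of the members, so that libraries differed in this mixture more than the groups did. Bins of fewer than 20 cells carry part of these courses, namely the low and middle bins of Control 1 and the high bin of hucMSC-Exo 1. Without both of those libraries, the values of Control 2 and hucMSC-Exo 2 gave the same direction from the low to the high bin.

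**Figure D1:**
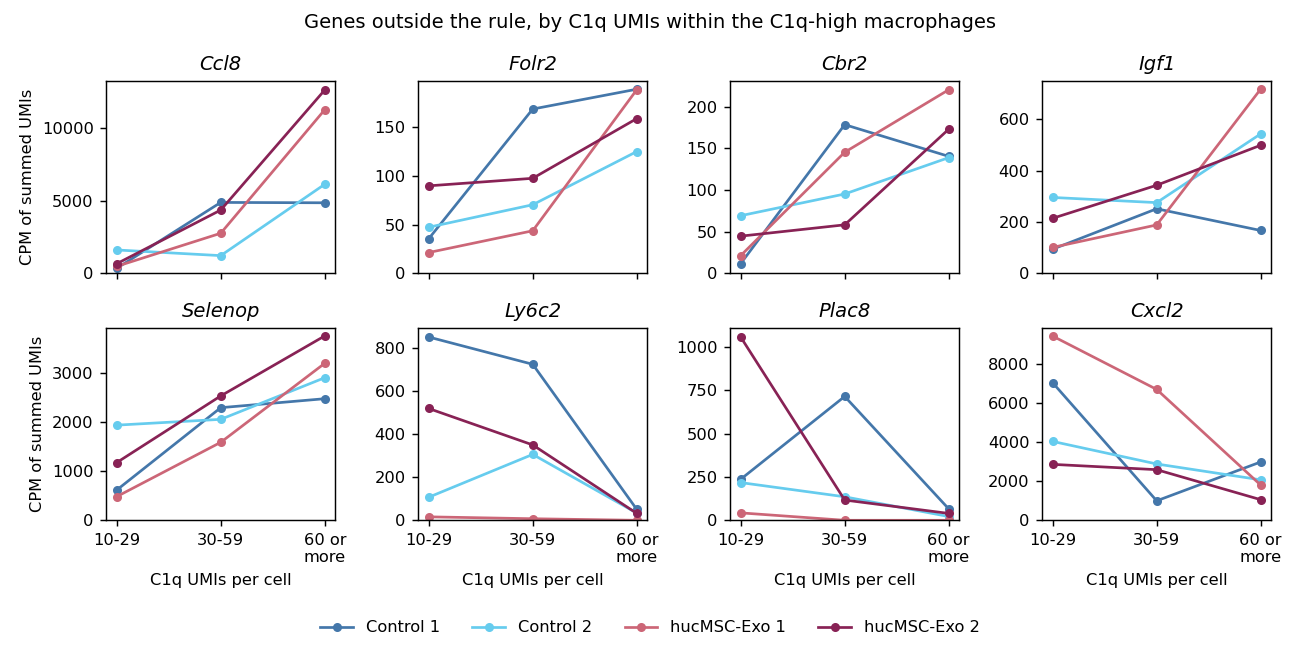
Level of 8 genes outside the choice of cells (CPM of summed UMIs, vertical axes) in C1q-high macrophages with 10 to 29, 30 to 59 and 60 or more C1q UMIs per cell (horizontal axes), 1 line per library. *Ccl8* lies between 355 and 1620 CPM in the lowest bin and between 4870 and 12644 CPM in the highest.

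The markers were also described in the cells on either side of the thresholds. Just inside the C1q minimum, the 18 members with 10 or 11 UMIs had *Folr2* at 19.6, *Cbr2* at 29.4, *Igf1* at 108 and *Ccl8* at 352 CPM. Just outside it, 20 cells had 8 or 9 UMIs and met the other conditions. They had no *Folr2*, *Cbr2* or *Igf1* UMI and *Ccl8* at 704 CPM, so that *Ccl8* ran against the other 3 genes there. The levels of those 3 genes rested on few UMIs. In a wider bin, 40 cells with 5 to 9 C1q UMIs had *Folr2* at 5.11, *Cbr2* at 10.2, *Igf1* at 40.9 and *Ccl8* at 639 CPM. The 34 members with 10 to 14 were at 31.0, 20.7, 186 and 491 CPM. At the limit on the osteoclast-like genes, 125 members with 2 of the 7 genes had *Ccl8* at 1864 and *Folr2* at 76.2 CPM. The 129 cells with 3 of the 7 genes and enough C1q had *Ccl8* at 670 and *Folr2* at 43.7 CPM. The 102 members with none of the 7 genes had *Ccl8* at 9660 and *Folr2* at 165 CPM, so that both levels were lower with each added gene from none to 3. At the limit on *Cxcl9*, 8 cells with 1 UMI had *Ccl8* at 6368 and *Folr2* at 184 CPM. These values are a description, since the thresholds chose the cells.

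Markers of other cell types were mostly low in the members. The 7 keratinocyte markers summed to 945, 392, 611 and 577 CPM, with *Krt14* as the most abundant. *Krt14* was found in 76.6% of members and in 78.9% of T cells, and with every cell thinned to 2000 UMIs in 35.5% and 51.8%, so that it was no more frequent in the members. The 6 fibroblast markers summed to 216, 450, 251 and 357 CPM with *Col1a1* in front, and the 6 neutrophil markers to 64.2, 493, 87.3 and 115 CPM with *S100a9* in front. *S100a9* was found in 13.9% of members and 12.7% of T cells, and after thinning in 3.55% and 7.08%. Of its 237 UMIs in Control 2, 209 lay in 1 member, which carried much of the neutrophil sum of that library. The 8 T cell markers summed to at most 17.1 CPM and the 5 Langerhans cell markers to at most 125 CPM with *Cd207* in front. *Cd207* was more frequent in the members, at 4.34% against 1.81% of T cells and after thinning at 2.66% against 0.66%. It was found in 1, 6, 8 and 0 members, 12.3% of those in hucMSC-Exo 1, and 1 member of Control 2 held 30 of the 48 UMIs there. A few members thus held a Langerhans cell transcript, and its part in the results was not tested. The 9 dendritic cell markers summed to at most 172 CPM with *Ccr7* in front. The 4 monocyte markers summed to 646, 333, 62.6 and 461 CPM, with *Ly6c2* in front, so that hucMSC-Exo 1 stood apart with few monocyte transcripts.

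The first question was whether the share of these macrophages among the kept cells differed with the exosomes. The deposited matrices held fewer cells than the study states, with no cell under 500 UMIs, and whether they are a filtered part could not be settled, so that these shares may differ from those in the tissue. They made up 6.62% of the kept cells in Control 1 (63 of 952, exact Clopper-Pearson 95% interval 5.12 to 8.39) and 5.88% in Control 2 (122 of 2074, 4.91 to 6.98). In hucMSC-Exo 1 they made up 4.59% (65 of 1416, 3.56 to 5.81) and in hucMSC-Exo 2 4.80% (96 of 2001, 3.90 to 5.83). The condition on *Cxcl9* had left out 41 cells in Control 1, against 5, 1 and 9 in the other libraries. Both shares of the hucMSC-Exosomes group lay below both control shares, with intervals that overlapped. The mean share was 6.25% ± 0.520 (SD, n = 2) with saline and 4.69% ± 0.147 (SD, n = 2) with exosomes, so the hucMSC-Exosomes mean minus the control mean was -1.56 points. An exact two-sided permutation test gave p = 0.33, the smallest that 2 libraries against 2 allow, so that this design could not reach 0.05. Among the kept cells with *Csf1r* and without *Cd3g*, the shares were 31.3%, 20.9%, 20.6% and 21.9%. On that denominator the mean difference was -4.85 points (exact permutation p = 0.667), the groups overlapped and Control 1 alone was high.

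**Figure D2:**
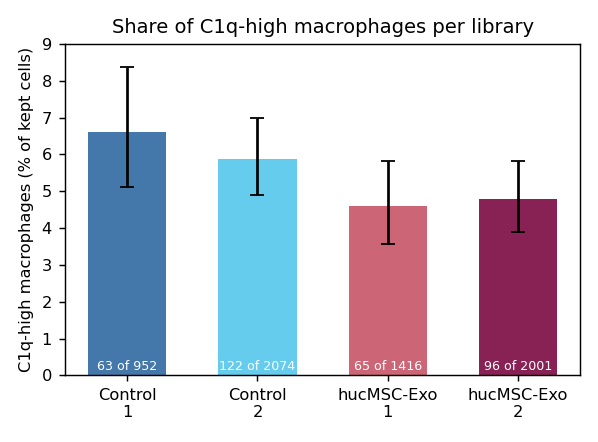
Share of C1q-high macrophages among kept cells (%, vertical axis) in each library (horizontal axis), with exact 95% intervals as error bars and the number of cells in each bar. Both hucMSC-Exosomes libraries, at 4.59% and 4.80%, lie below both control libraries, at 5.88% and 6.62%.

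The second question was whether the exosomes changed gene expression within these macrophages. Of 5668 genes tested on UMIs summed per library, edgeR called 0 (0%) at an adjusted p of 0.05, and the smallest adjusted p was 0.606. At an unadjusted p under 0.05 there were 134 genes (2.36%). DESeq2 called 1 gene, *Ccl24*. Genes whose groups did not overlap numbered 1580 (27.9%), of which 729 were higher and 851 lower in the hucMSC-Exosomes group. The count depended on the libraries. Without Control 1 edgeR called 9 genes, without Control 2 16, without hucMSC-Exo 1 8 and without hucMSC-Exo 2 56, and *Retnla* and *Ccl24* were called in all 4 of these fits. The last count compares hucMSC-Exo 1 alone with both controls, and this library had the largest share of members without the 4 markers and the lowest summed level of monocyte markers. Their part in the count was not tested.

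The largest differences between the groups were not past the threshold with all 4 libraries, and the gene with the largest was carried by few cells. *Retnla* (mouse genome GRCm38, chr16:48842551-48844461), an effector gene of alternative activation, gave 0, 2, 27 and 349 UMIs. All 27 UMIs of hucMSC-Exo 1 lay in 1 cell, and 323 of the 349 in hucMSC-Exo 2 (92.6%) lay in another. Members with the gene numbered 0, 2, 1 and 3, so that the number of positive cells hardly differed. The 376 UMIs of the hucMSC-Exosomes group against 2 of the control group gave a ratio of 244, with a counting interval of 67.0 to 2020 that treats UMIs as independent, which they were not within a cell. The edgeR adjusted p of *Retnla* was 0.606 with all libraries. It was called in each fit that left out a library, with a log2 difference from 5.35 to 10.29, and also with the replicate block and without the filter on low counts. *Ccl24* (chr5:135569937-135573049), an attractant of eosinophils, was at 35.0, 8.57, 116 and 190 CPM, with both libraries of the hucMSC-Exosomes group above both controls. Its log2 difference was 2.98 (SE 0.53, edgeR adjusted p 0.689), and from 2.11 to 4.16 in the fits that left out a library. Members with *Ccl24* numbered 5, 5, 4 and 10, and 48 of the 52 UMIs of hucMSC-Exo 1 lay in 1 cell.

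Further genes met the rule for the highest differences without passing the threshold. *Fn1*, which encodes the matrix protein fibronectin, was at 105, 111, 427 and 146 CPM (log2 difference 1.42, SE 0.47, edgeR adjusted p 0.999). *Egr1*, an immediate early transcription factor gene, was at 113, 71.7, 215 and 207 CPM, and *mt-Nd4l*, a mitochondrial gene of respiratory complex I, at 58.3, 84.6, 159 and 106 CPM. Their log2 differences were 1.22 and 0.88. In *Fn1* the difference came mainly from hucMSC-Exo 1, while in *Egr1* both libraries of the hucMSC-Exosomes group lay close together. When a library was left out, the log2 difference of *Fn1* ran from 0.38 to 2.04 (called in 1 fit), that of *Egr1* from 0.89 to 1.58 and that of *mt-Nd4l* from 0.50 to 1.19 (called in 0).

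Among the lowest differences, *Isg15*, an interferon-induced ubiquitin-like gene, was at 150, 82.4, 22.4 and 52.2 CPM (log2 difference -1.55, SE 0.43, edgeR adjusted p 0.999). *Chil3*, a chitinase-like gene of monocytes, was at 123, 102, 33.6 and 46.3 CPM, with a log2 difference of -1.45 (SE 0.31). *Nr4a3*, a nuclear receptor gene induced early by stimulation, was at 99.2, 115, 15.7 and 64.2 CPM and had a log2 difference of -1.34. *AW112010*, an interferon-responsive transcript, was at 325, 169, 78.3 and 128 CPM with a log2 difference of -1.23. In each of these genes both libraries of the hucMSC-Exosomes group lay below both controls, and each failed the correction with all libraries. When a library was left out, the log2 difference of *Isg15* ran from -2.28 to -1.07 (called in 2 fits), that of *Chil3* from -1.66 to -1.30 (called in 0), that of *Nr4a3* from -2.70 to -0.79 and that of *AW112010* from -1.66 to -0.68 (called in 1 each). *Pdpn* was at 91.4, 172, 33.6 and 59.7 CPM, and since it was used in choosing the cells this is a description only.

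Lists of genes by role gave 0 edgeR calls each between the groups, as did all genes tested (0%), and DESeq2 called *Ccl24* of the chemokine list only. They are described by their median log2 difference beside 0.01 over all genes tested. The 12 tested interferon-stimulated genes had a median of -0.69, with 0 of 12 above 0. In 6 of the 12 the groups did not overlap and the hucMSC-Exosomes group was lower, against 15% of all genes tested. The summed level of the interferon-stimulated list was 1933, 1707, 618 and 1643 CPM, so that hucMSC-Exo 1 was low and hucMSC-Exo 2 was close to the controls. Without hucMSC-Exo 1 the median was -0.41, and without hucMSC-Exo 2 it was -1.40. *Rsad2*, which encodes an antiviral enzyme, followed this pattern at 317, 370, 69.4 and 237 CPM, and *Bst2*, which encodes a virus-tethering protein, did so at 403, 387, 161 and 443 CPM. The members were chosen without *Cxcl9*, an interferon-gamma-induced gene. This condition left out 41 cells in Control 1 against 5, 1 and 9 in the other libraries, and its part in these values was not tested.

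The 17 immediate early and heat shock genes had a median of -0.26, with 5 of 17 above 0. In 7 of them the hucMSC-Exosomes group was lower without overlap, and in 1 it was higher. Without Control 1 this median was -0.03. These genes respond to handling of tissue, and the part of dissociation in their levels was not tested. The heat shock gene *Hspa1a* was at 2853, 1873, 1530 and 1686 CPM, and its near-identical neighbour *Hspa1b*, whose reads are hard to tell apart from it, at 2411, 1671, 1347 and 1570 CPM. The 16 tested chemokine genes had a median of 0.42, with 4 higher and 1 lower without overlap (12.9% and 15% over all genes). *Ccl8* (chr11:82115185-82116799) was at 4132, 3559, 4150 and 8746 CPM, so that its log2 difference of 0.74 came from hucMSC-Exo 2 alone. *Ccl8* was called without hucMSC-Exo 1 and not with all libraries.

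Between the groups, the other lists had medians nearer to that of all genes, except the list of monocyte origin. The medians were 0.12 for 20 tissue residency genes, -0.09 for 19 scavenger and efferocytosis receptors, 0.00 for 20 growth and repair genes and -0.20 for 8 inflammatory mediators. They were 0.15 for 10 genes of alternative activation, 0.09 for 10 of major histocompatibility complex (MHC) class II presentation, -0.05 for 25 lipid and lysosome genes and 0.17 for 9 iron and heme genes. The 10 complement genes had a median of -0.05, the 5 cell cycle genes 0.05 and 19 genes that the study names for macrophages 0.09. The complement median includes the 3 C1q genes that chose the cells, so it is a description only. The 9 tested genes of monocyte origin had a median of -0.34, which was 0.02 without hucMSC-Exo 1 and -1.04 without hucMSC-Exo 2. Each median in this paragraph changed its sign or came to 0.00 when some library was left out, so that no direction held for these lists. The interferon-stimulated, immediate early and chemokine medians kept their sign without each library in turn. The monocyte list rested on hucMSC-Exo 1, where *Ly6c2* was at 8.95 CPM against 307, 117 and 187 CPM in the other libraries.

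The members were then compared with other cells that had *Csf1r*, to show where they differ. The *Cxcl9*-positive macrophages, which met every other condition, were too few to test and are described further below. Osteoclast-like macrophages were the 491 kept cells (19, 248, 124 and 100) with *Csf1r*, without *Cd3g* and *Cxcl9*, and with 3 or more of the 7 genes. They had a median of 8797 UMIs and 15 C1q UMIs. With the library as a block, edgeR called 807 of 5964 genes (13.5%) at an adjusted p of 0.05, 427 higher (7.16%) and 380 lower (6.37%) in the C1q-high macrophages. Genes used in choosing either population were left out, and genes linked to them follow the choice of cells. The count was 300 without Control 2, 517 without hucMSC-Exo 1 and 389 without hucMSC-Exo 2. Of the 807 genes, 783 of 783, 805 of 805 and 806 of 806 that could be fitted kept their direction in those fits. When the osteoclast-like cells were limited to 278 with at least 10 C1q UMIs, an alternative chosen after seeing the data, 452 of 5095 genes were called and 747 of 750 fitted genes kept their direction.

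Monocytes with *Ly6c2* and *Chil3* were the 133 kept cells (10, 39, 15 and 69) with *Csf1r*, at least 1 UMI of each of these genes, fewer than 10 C1q UMIs and otherwise the same limits. Against them edgeR called 762 of 4605 genes (16.5%), 405 higher (8.79%) and 357 lower (7.75%) in the C1q-high macrophages. The count was 354 without Control 2 and 301 without hucMSC-Exo 2. All 762 kept their direction without Control 2, and 726 of the 726 that could be fitted did so without hucMSC-Exo 2. In both comparisons the medians over all genes tested were near 0, at -0.00 and 0.03 on the log2 scale. A log2 difference below is C1q-high macrophages minus the other population, and adjusted p-values are from edgeR. The list counts below stand beside the shares called over all genes tested. Against osteoclast-like macrophages these were 7.16% higher and 6.37% lower, and against monocytes 8.79% and 7.75%.

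Tissue residency genes separated the members from both populations. Of the 25 genes in the list, 18 were tested against osteoclast-like macrophages, with 15 higher and 1 lower and a median log2 difference of 1.56. Against monocytes 17 were tested, with 14 higher and 1 lower and a median of 3.09. The counts were 13 to 16 higher in each comparison when a library was left out, and 15 of 17 with C1q of at least 10 in both macrophage populations. *Selenop* was at 2133, 2391, 1564 and 3040 CPM, with a log2 difference of 1.59 from osteoclast-like macrophages and 3.69 from monocytes (adjusted p 0.00021 and 1.6e-08, higher in 4 of 4 libraries in both). *Maf*, which encodes a transcription factor of mature macrophages, was at 465, 620, 468 and 813 CPM and differed by 2.31 and 3.09.

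*Klf2*, a transcription factor gene of quiescent cells, had the largest log2 difference of the genes that met the naming rule against osteoclast-like macrophages, at 4.02 (SE 0.43, adjusted p 0.00025). It was at 132, 313, 369 and 372 CPM in the members and at 69.8, 16.5, 8.86 and 17.4 CPM in the osteoclast-like macrophages, so that the libraries of the 2 populations did not overlap. *Folr2* (chr7:101839988-101857194) was at 159, 86.7, 73.8 and 133 CPM and *Cbr2* (chr11:120729489-120732114) at 126, 106, 114 and 125 CPM. Their log2 differences from osteoclast-like macrophages were 2.02 and 2.00. *Folr2* gave 0 UMIs in the monocytes, which put the members at least 33.7-fold higher with a floor of 3 counts over the group. *Gas6*, which encodes a bridging ligand for dying cells, was at least 40.9-fold higher by the same floor, and *Cd163*, the receptor for hemoglobin bound to haptoglobin, at least 17.7-fold higher. *Vcam1*, an adhesion molecule gene outside the lists, was at least 41.4-fold higher.

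*Fcrls*, an Fc receptor-like gene of resident macrophages, gave 542 UMIs in the members and 1 in the monocytes, a ratio of 192 with a counting interval of 34.4 to 7612. *Clec10a*, a lectin gene, was at 117, 68.5, 85.0 and 118 CPM, with a log2 difference of 2.89 from osteoclast-like macrophages. *Ninj1*, which encodes a membrane rupture protein, was the residency gene lower in the members in both comparisons, at -0.65 and -0.78. The summed residency transcripts of the members thus exceeded both populations, while the members with few C1q UMIs held less of them. Members with 10 to 14 C1q UMIs had *Folr2* at 31.0 and *Selenop* at 486 CPM, below the 43.7 and 1343 CPM of the cells with enough C1q and 3 of the 7 osteoclast-like genes.

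**Figure D3:**
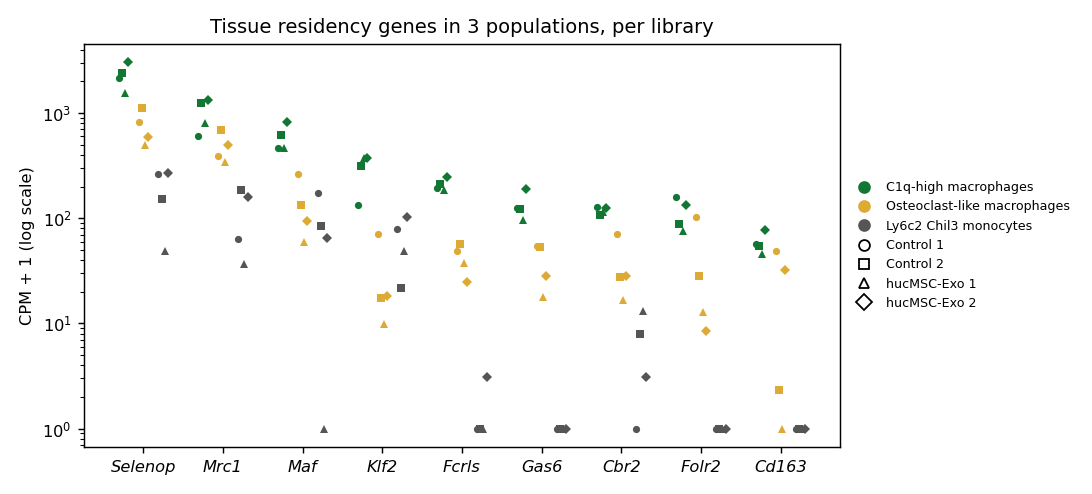
Level of 9 tissue residency genes (CPM plus 1, log scale, vertical axis) in C1q-high macrophages, osteoclast-like macrophages and *Ly6c2* *Chil3* monocytes (colours), 1 symbol shape per library. *Folr2* lies between 73.8 and 159 CPM in the C1q-high macrophages and at 0 CPM in the monocytes of every library.

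Among the ligands, several chemokine genes of the CC family were higher in the members, though not all. Of 16 chemokine genes tested against osteoclast-like macrophages, 8 were higher and 3 lower, with a median log2 difference of 1.25. Of 15 tested against monocytes, 9 were higher and 4 lower, with a median of 2.09. *Ccl8* had a log2 difference of 3.83 (SE 0.75, adjusted p 0.0066) from osteoclast-like macrophages, in which it was at 1792, 358, 10.8 and 440 CPM. Its osteoclast-like level varied more between libraries than its level in the members, and without the library block its adjusted p was 0.053, within a range of 9.8e-145 to 0.053 over the alternatives. In the monocytes *Ccl8* gave 2 UMIs against 13165 in the members, a ratio of 2336 with a counting interval of 647 to 19293.

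The monocyte attractants *Ccl2* (chr11:82035571-82037453), *Ccl7* (chr11:82045712-82047525) and *Ccl12* (chr11:82101845-82103400) lie in the same cluster. *Ccl2* was at 443, 681, 622 and 921 CPM, *Ccl7* at 385, 699, 530 and 888 CPM and *Ccl12* at 185, 188, 197 and 346 CPM. From osteoclast-like macrophages they differed by 2.92, 3.25 and 3.1 on the log2 scale. *Ccl5*, an attractant of T cells, differed by 3.54 from osteoclast-like macrophages and by 2.09 from monocytes, the latter not past the threshold (adjusted p 0.11). *Pf4*, which encodes platelet factor 4, was at 1332, 1713, 2231 and 1994 CPM and differed by 5.67 from monocytes (adjusted p 4.6e-07) and by 0.15 from osteoclast-like macrophages (adjusted p 0.52). *Pf4* was thus a transcript that the members had in common with osteoclast-like macrophages, at levels not told apart here.

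The neutrophil attractant genes *Cxcl1*, *Cxcl2* and *Cxcl3* were called lower than in osteoclast-like macrophages, and *Cxcl2* and *Cxcl3* also lower than in monocytes. *Cxcl2* was at 3288, 2916, 6506 and 1712 CPM in the members, with a log2 difference of -1.59 from osteoclast-like macrophages and -1.05 from monocytes. In the monocytes it was at 1836, 7666, 13383 and 7972 CPM, so that Control 1 ran against the other libraries. *Cxcl3* was at 5.83, 448, 680 and 222 CPM, with Control 1 far below the others, and differed by -2.35 and -1.73. It gave 3 UMIs in the members of Control 1 and 0 in the monocytes of that library. *Cxcl1* was at 48.6, 80.3, 284 and 41.8 CPM and differed by -2.43 from osteoclast-like macrophages. In the monocytes *Cxcl1* was at 15.6, 99.7, 12.0 and 14.8 CPM, below the members in 3 of 4 libraries, and its log2 difference of 0.99 was not past the threshold (adjusted p 0.15). Among CC family genes, *Ccl6* was at 381, 207, 157 and 416 CPM and *Ccl9* at 348, 497, 374 and 483 CPM, and both were called lower than in monocytes, by -1.18 and -0.95, and not called against osteoclast-like macrophages. The C1q-high macrophages therefore carried transcripts of *Ccl2*, *Ccl7* and *Ccl12* in excess of both populations, and fewer of *Cxcl2* and *Cxcl3*, except against the monocytes of Control 1.

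In the complement list, C1q transcripts themselves chose the members and are given as a description. *C1qb* was at 3949, 2556, 3067 and 3880 CPM, *C1qa* at 3401, 2544, 2273 and 3739 CPM and *C1qc* at 1956, 1637, 1309 and 2083 CPM. The 3 genes lie side by side on chromosome 4 (*C1qb* at 136880129-136886187, *C1qc* at 136889804-136893065 and *C1qa* at 136895917-136898803). Of 6 other complement genes tested, 2 were higher than in osteoclast-like macrophages, with *C3ar1* among them, and 2 higher than in monocytes, *C3ar1* and *Cfp*, with 0 lower in both. The former count ran from 0 without Control 2 to 4 without Control 1, with 1 without hucMSC-Exo 2, and the latter was 1 without Control 2 or without hucMSC-Exo 2. *C3ar1*, the receptor gene for the C3a fragment, was at 350, 324, 262 and 440 CPM and differed by 0.49 and 0.79. *Cfp*, which encodes properdin of the alternative pathway, was at 319, 246, 246 and 303 CPM and differed by 1.06 from monocytes. *C3*, the central component, was at 233, 118, 123 and 184 CPM and was not called in either comparison (adjusted p 0.19 and 0.40).

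Receptors for the uptake of dying cells and debris were divided. Of 19 tested against osteoclast-like macrophages, 7 were higher and 2 lower (median 0.31), and 3 were higher without Control 2. Of 18 tested against monocytes, 10 were higher and 3 lower (median 0.96). *Mrc1* was at 607, 1259, 799 and 1327 CPM and differed by 1.02 and 3.1. *Fcgr2b*, the inhibitory Fc receptor gene, was at 574, 651, 555 and 922 CPM and differed by 0.75 and 1.36. *Trem2*, a lipid receptor gene, was at 447, 336, 322 and 306 CPM, which differed by 2.02 from monocytes but by 0.23 from osteoclast-like macrophages (adjusted p 0.34). *Mertk*, a receptor for *Gas6*, was called higher in both comparisons, so that a ligand and its receptor for dying cells were both raised in the members.

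Genes of MHC class II presentation were higher in the members. Of 10 tested against osteoclast-like macrophages 7 were higher and 0 lower (median 0.51), and of 9 against monocytes 7 were higher and 0 lower (median 0.87). Against osteoclast-like macrophages the count was 3 without Control 2, 4 without hucMSC-Exo 1 and 2 without the library block, and against monocytes it was 4 without hucMSC-Exo 2. *Cd74*, the invariant chain, was at 10411, 9288, 11742 and 9404 CPM and differed by 0.54 and 1.49. *H2-Aa*, an MHC class II chain gene, was at 5147, 5491, 6441 and 5596 CPM and differed by 0.53 and 1.70. The libraries of the members lay close together in these genes, and no group difference was called.

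Interferon-stimulated genes were higher than in osteoclast-like macrophages in 9 of 11 tested (median 0.91, 0 lower), a result that rested on single libraries. The count was 0 without Control 2, 5 without hucMSC-Exo 1 and 1 without hucMSC-Exo 2, and DESeq2 called 3. With at least 10 C1q UMIs in both populations it was 8 of 10. Control 1 ran the other way in the sum of the list, which was 2093, 723, 251 and 629 CPM in osteoclast-like macrophages against 1933, 1707, 618 and 1643 CPM in the members. Against monocytes 2 of 11 were higher and 2 lower (median 0.23), each 1 or 0 without Control 2, and 1 without Control 1 or hucMSC-Exo 2. Immediate early and heat shock genes were higher than in osteoclast-like macrophages in 15 of 17 (median 1.12) and than in monocytes in 10 of 17, with 1 lower (median 0.85). The former count stayed between 11 and 16 without a library, and the latter was 3 without Control 2 and 6 without hucMSC-Exo 2. *Jun* was at 1070, 672, 870 and 924 CPM and differed by 1.93 and 1.18, and *Egr1* differed by 2.88 and 2.64. All populations came from the same suspensions, and the part of dissociation in these differences was not tested.

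Growth and repair genes were divided between the populations. Against osteoclast-like macrophages 2 of 20 were higher and 8 lower (median -0.08), and the lower count was 3 without Control 2 and 4 without hucMSC-Exo 2. Against monocytes 7 of 16 were higher and 3 lower (median 0.46). *Igf1* (chr10:87858265-87937042) was at 171, 403, 298 and 416 CPM and differed by 2.78 from osteoclast-like macrophages (adjusted p 0.00014) and by 5.04 from monocytes (adjusted p 2.6e-07). *Thbs1*, which encodes the matrix protein thrombospondin 1, was at 1478, 3564, 3918 and 2440 CPM and differed by -0.97 and -1.50. *Spp1*, the osteopontin gene, was at 560, 672, 436 and 216 CPM and differed by -1.46 from osteoclast-like macrophages and by 0.93 from monocytes. *Vegfa*, the main angiogenic factor gene, was at 198, 536, 371 and 327 CPM and differed by -0.57 from osteoclast-like macrophages. *Mmp12*, an elastase gene of macrophages, differed by -2.18 from osteoclast-like macrophages, and *Inhba*, which encodes an activin chain, by -2.0. *Igf1* and *Gas6* were thus the genes of this list that exceeded both populations, while *Thbs1*, *Tgfbi* and *Fn1* were called lower than both. *Fn1* was an exception in hucMSC-Exo 1, at 427 CPM in the members against 328 CPM in osteoclast-like macrophages and 409 CPM in monocytes.

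Inflammatory mediators gave small counts, with 2 of 8 higher and 2 lower against osteoclast-like macrophages (median 0.34) and 4 of 8 higher and 1 lower against monocytes (median 0.37). The higher counts were 0 and 1 without Control 2, 0 and 2 without hucMSC-Exo 1, and 0 and 1 without hucMSC-Exo 2, and against osteoclast-like macrophages 4 without Control 1. *Ptgs2*, which encodes the prostaglandin enzyme cyclooxygenase 2, was at 1178, 909, 521 and 407 CPM and differed by -1.31 from osteoclast-like macrophages. *Il1b* was at 1176, 1799, 1526 and 931 CPM and was not called in either comparison (adjusted p 0.051 and 0.070). *Il10*, the gene of an inhibitory cytokine, was at 66.1, 92.1, 78.3 and 41.8 CPM and was found in 45 members (13%) and 67 T cells (2.82%). In the monocytes it gave 2 UMIs, a ratio of 32.5 with a counting interval of 8.86 to 270. *Il10* was thus measured in a minority of the members, at a larger share than in T cells, some of which can express it. These shares were taken at the deposited depth, which was larger in the members, at medians of 7384 and 4075 UMIs per cell.

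Of the genes of alternative activation, 5 of 10 were higher and 2 lower against osteoclast-like macrophages (median 0.43), and 5 of 7 higher and 0 lower against monocytes (median 1.80). Without Control 2, 3 were higher than in osteoclast-like macrophages. The 5 were the same in both comparisons, namely *Cd83*, *Clec10a*, *Egr2*, *Mgl2* and *Mrc1*. With all libraries, these 5 genes were thus called higher than in both populations.

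Of 25 lipid and lysosome genes, 3 were higher and 3 lower than in osteoclast-like macrophages, against 7.16% and 6.37% of all genes tested. Their median was 0.00, with 1 lower without Control 2 and 0 without hucMSC-Exo 1. Against monocytes 13 of 25 were higher and 1 lower (median 0.68). *Apoe* was at 21359, 14410, 10534 and 19841 CPM and differed by 0.88 and 2.34. *Ctsb*, which encodes the lysosomal protease cathepsin B, was at 3821, 4467, 2982 and 4754 CPM and differed by 0.22 (adjusted p 0.10) and 1.36. *Lpl*, the lipoprotein lipase gene, differed by 2.73 from monocytes. Iron and heme genes were divided, with 1 of 10 higher, 4 lower and 5 not called against osteoclast-like macrophages (median -0.33) and 3 of 9 higher and 3 lower against monocytes (median 0.10). The lower counts were 2 and 1 without Control 2 and again without hucMSC-Exo 2, and 2 against osteoclast-like macrophages without hucMSC-Exo 1. *Fth1*, the ferritin heavy chain gene, was at 21830, 25770, 34749 and 19953 CPM and differed by -0.88 and -0.60. *Hmox1*, which encodes the heme-degrading enzyme, was at 515, 1354, 2206 and 821 CPM and differed by -1.12 and -0.78. In *Hmox1* the libraries of the members spread widely, with hucMSC-Exo 1 highest and Control 1 lowest.

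Most tested genes of monocyte origin were called lower in the members than in both populations. Against monocytes, 11 of 11 tested were lower (median -2.04), and 10 or 11 were so without any single library. That contrast was in part made by the choice of monocytes through *Ly6c2* and *Chil3*, which were left out of it. *Plac8* was at 214, 112, 17.9 and 227 CPM and differed by -4.64 from monocytes. *Ccr2*, the receptor gene for the attractant *Ccl2*, was at 305, 180, 112 and 267 CPM, lower than in monocytes by -0.95 and higher than in osteoclast-like macrophages by 0.85 (adjusted p 0.0042 and 0.0035). Against osteoclast-like macrophages 9 of 12 genes were lower and 1 higher (median -1.15). With at least 10 C1q UMIs in both populations, that contrast shrank to 1 of 9 lower and 1 higher (median -0.11). Fewer genes were tested there, 9 in place of 12, and the reason for the smaller contrast was not tested. The residency, chemokine and immediate early counts did not shrink in this way, at 15, 8 and 14 genes higher.

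The remaining lists were the genes that the study names for macrophages and the cell cycle genes. Of 19 genes that the study names for macrophages, which it picked from these libraries, 6 were higher and 10 lower against osteoclast-like macrophages (median -0.57), and 10 of 18 higher and 5 lower against monocytes (median 1.10). Of 6 cell cycle genes tested against osteoclast-like macrophages and 4 against monocytes, edgeR and DESeq2 called 0, with 3 and 0 at an unadjusted p under 0.05, and without Control 1 edgeR called 1 in each comparison. *Mki67*, a gene of dividing cells, was found in 25 members (7.23%) and in 9.54% of T cells, which can divide in the wound, and after thinning in 2.37% and 5.38%.

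Of the markers of B cells, T cells, NK cells, neutrophils, keratinocytes, fibroblasts and other unrelated cells, 1 was called higher in the members, in both comparisons. This was *Ighm*, the immunoglobulin heavy chain gene, with log2 differences of 2.32 from osteoclast-like macrophages and 1.63 from monocytes. It was the most abundant and the only tested one of the 4 B cell markers, which summed to 165, 101, 101 and 213 CPM in the members. They summed to 42.9, 26.1, 24.6 and 22.4 CPM in osteoclast-like macrophages and to 46.7, 44.7, 12.0 and 52.9 CPM in monocytes. *Cd79a*, a defining B cell gene, gave 0 UMIs in the members, *Cd79b* was at 3.89 to 26.9 CPM and *Ms4a1* was not listed in the matrices. The part of B cell transcripts in the other differences was not tested.

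Of the genes that met the naming rule by size of difference, those not yet given had these roles. Against osteoclast-like macrophages, *Hpgd* (prostaglandin breakdown) differed by 3.45, *Gpr34* (a receptor for lysophosphatidylserine) by 3.27 and *Clec4b1* (a lectin) by 3.12. The osteoclast gene *Ctsk*, encoding cathepsin K, differed by -2.33, and from -2.78 to -1.38 when a library was left out. It was at 21.5, 84.4, 387 and 42.3 CPM in the osteoclast-like macrophages, highest in hucMSC-Exo 1. *Ctsk* itself was not used in choosing the cells, but genes linked to the osteoclast-like genes follow that choice, so its difference is a description only. *Vcan* (the matrix proteoglycan versican) differed by -2.92, *Hp* (haptoglobin) by -2.70, *Slpi* (a protease inhibitor) by -2.44, *Procr* (the protein C receptor) by -2.31 and *Itgb7* (an integrin chain) by -1.94. All 20 genes named by this rule were called in each fit that left out a library.

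Against monocytes, large negative differences of the C1q-high macrophages were found in *Ifitm6* (an interferon-induced membrane protein gene, -5.37). *Hp* (-5.11), *Vcan* (-4.93), *Plcb1* (a phospholipase gene, -4.40), *Slpi* (-3.41), *Mcemp1* (-3.27), *Gpr141* (-3.02) and *Trem1* (an activating receptor gene, -2.97) followed. The genes named by this rule against monocytes were called in each fit that left out a library. *Hp*, *Slpi*, *Mcemp1* and *Trem1* are also expressed by neutrophils. The 6 neutrophil markers summed to 171, 193, 2249 and 718 CPM in the monocytes, with *S100a8* in front and *Ly6g* at 0 in both populations, against the 64.2, 493, 87.3 and 115 CPM of the members. Of 3 of these markers tested, 1 was called lower in the members, *S100a8*. The part of neutrophil transcripts in the differences from monocytes was not tested.

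A comparison with *Cxcl9*-positive macrophages, which met every condition except the absence of *Cxcl9*, could not be tested. They numbered 56 cells (41, 5, 1 and 9), and only Control 1 held at least 10. In Control 1 alone, without replication, 75 list genes had Poisson 95% intervals that lay apart and 142 had intervals that overlapped, for 514248 UMIs of members and 336985 of *Cxcl9*-positive cells. The members had more *Folr2* (159 against 29.7 CPM), *Cbr2* (126 against 14.8 CPM) and *Mrc1* (607 against 323 CPM). They had less *Ccl8* (4132 against 6914 CPM), *Ccl5* (379 against 1635 CPM) and *Cxcl10* (97.2 against 733 CPM). The other libraries did not show this direction for the first 2 genes. In their 5, 1 and 9 *Cxcl9*-positive cells *Folr2* gave 13, 12 and 18 UMIs, at 362, 1308 and 312 CPM, and *Cbr2* was at 250, 1090 and 347 CPM, each above the members of the same library. *Mrc1* was at 1614, 545 and 1179 CPM, above the members in Control 2 only. Summed over the residency list, the *Cxcl9*-positive cells were at 4389, 13053, 10467 and 10612 CPM in the 4 libraries. The members were at 6845, 8338, 6287 and 9789 CPM, higher in Control 1 only. The chemokine list summed to 17977, 29918.5, 33362 and 25905 CPM in the *Cxcl9*-positive cells and to 12541, 13622, 18069 and 18306 CPM in the members. Neither sum was thus particular to the members, though *Cxcl9*-positive cells were few outside Control 1. The choice of cells by *Cxcl9* bears on interferon-gamma-induced genes such as *Cxcl10*, which is a description only.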

How the data were processed

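Per the labels, Cell Ranger 6.1.2 aligned reads of 3′ droplet libraries to mm10 (GRCm38), and what the authors deposited are raw UMI counts, whole and not normalized. In the order of the report, the matrices list 20151, 20339, 20473 and 20405 genes, and a gene that a matrix did not list was taken as 0. The kept cells held 4779405, 11243740, 6459007 and 9053510 UMIs. The members and the gene lists were chosen with earlier results of these data known, and the cells were selected on measured values, so genes used in the selection were described and not tested against other populations.

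UMIs were summed per library and population, and sums of fewer than 10 cells were left out. They were compared with edgeR 4.0.16 in R 4.3.3 (TMM scaling, filterByExpr, quasi-likelihood test, Benjamini-Hochberg adjustment at 0.05 over all genes tested), with the library as a block between populations and no block between the groups. Between the groups, the p-values measure the spread between libraries, of which each group had 2. Between populations, they measure how the difference within a library varied over the libraries. Shares had exact Clopper-Pearson 95% intervals and an exact two-sided permutation test over the 4 libraries. Where a population had 0 UMIs the floor was 3 counts over the group. Intervals and floors cover counting error only. Detection of genes together was counted after thinning each cell to 2000 UMIs (seed 0). Scrublet in scanpy 1.11.5, run per library with an expected rate of 0.06, called 48 of 7178 cells doublets, 1 of them a member, and these stayed in.

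Genes were named by rule. Between the groups, these were the 5 highest and 5 lowest log2 differences among 50 genes with an unadjusted p under 0.05, a mean of at least 50 CPM and groups that did not overlap. Between populations, these were the 10 largest in each direction among called genes with at least 50 CPM in the higher population and 1 direction in every library. From the lists, genes with a mean of at least 50 CPM in the members were eligible, and *Lyve1*, *Timd4*, *Mertk*, *Mki67*, *Krt14* and *S100a9* were named besides. Some genes that met these rules are not reported. Markers of erythrocytes, muscle, endothelial cells, mast cells, NK cells and B cells were counted as well. Alternatives were DESeq2 1.42.0, no TMM scaling, no filter, other blocks, other limits on C1q, the 7 genes and the gene number, removal of doublets, another denominator, thinning, and leaving out each library. The tests were tried on simulated data.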

Additional observations from a re-analysis of the deposited data

How the results depend on the processing

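Among kept cells, the lower share of C1q-high macrophages kept its direction under every alternative run. It ranged from -1.19 points without Control 1 to -2.08 points with no upper gene limit. With the *Csf1r* denominator the mean difference was -4.85 points, but the groups overlapped and Control 1 alone was high. No alternative could reach a p of 0.05 in the exact permutation test. Among the values of named genes under alternatives, 472 kept their direction and their side of the threshold, 22 passed it additionally and 3 lost it, and none reversed. The 3 were *Ccl8* and *Cxcl3* without a library block and *Mmp12* with DESeq2, all against osteoclast-like macrophages.

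Between the groups, the count of 0 genes became 18 without the filter on low counts, 1 (*Retnla*) with the replicate number as a block, 1 (*Ccl24*) with DESeq2 and 8 to 56 when a library was left out. Without the filter edgeR also gave far smaller adjusted p-values for abundant genes, such as 9.8e-145 for *Ccl8* against osteoclast-like macrophages in place of 0.0066. Blocks that pair the libraries across replicate numbers, chosen after seeing the data, gave 0, with 189 at an unadjusted p under 0.05. Libraries with the same number were no more alike than others, with a correlation of -0.128 between their deviations across 5668 genes, which are not independent replicates, so the numbers were not treated as pairs. Against osteoclast-like macrophages, the count of 807 became 391 without a library block, 439 with DESeq2, 452 with at least 10 C1q UMIs in both populations (chosen after seeing the data), and 300 to 874 when a library was left out. Without the filter on low counts it was 1144 (524 higher and 620 lower). Against monocytes, the count of 762 became 652 without a library block, 478 with DESeq2 and 301 to 888 when a library was left out. It was 916 without the filter on low counts (656 higher and 260 lower), with a median log2 difference of 0.43 over the genes tested. Fits that left a group with 1 library assumed that it varied like the others. The causes of these shifts were not tested.

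The alternatives for *Cxcl9*-positive macrophages were not run, since only Control 1 held enough cells. Each group had 2 libraries, and the smallest sums held 10 to 15 monocytes and 19 osteoclast-like cells, so a gene that was not called is not shown to be unchanged. Transcripts below about 50 CPM rested on few UMIs in the members.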

Other observations

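*Gm42418*, a noncoding gene at chr17:39846958-39848788, was at 71353, 37521, 27670 and 49133 CPM in the C1q-high macrophages of the libraries, in the order used above. *Cd209d*, a lectin gene of the residency list below the naming limit, gave 0, 7, 16 and 52 UMIs in the members, and 15 of the 16 in hucMSC-Exo 1 lay in 1 cell. *Gzma*, a gene of cytotoxic lymphocytes, gave 23 UMIs in 1 member of hucMSC-Exo 1 and 1 UMI in the other libraries together. Endothelial markers summed to at most 19.3 CPM, muscle markers to at most 121 CPM with *Acta1* in front, mast cell and basophil markers to at most 5.97 CPM and erythrocyte markers to at most 1.49 CPM. These genes were chosen after their values were seen.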
